A study of Mus musculus with 12 samples.

Results

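Heat shock proteins and their partner chaperones were followed in 12 RNAseq libraries of mouse striatum and cortex. The members were all gene rows whose symbol starts with Hsp, Dnaja, Dnajb or Dnajc, together with Cct2 to Cct8 and symbols that begin with these, Bag1 to Bag6, and Hsf1, Hsf2 and Hsf4. This rule found 93 of the 23282 gene rows. Of the 93 members, 89 had at least 1 count and 83 passed the filter on low counts, among 14706 genes that passed it. The members without a test were Cct6b, Cct8l1, Dnajb7, Dnajb8, Dnajb13, Dnajc5b, Dnajc5g, Dnajc22, Hspb7 and Hspb9, of which Dnajb7, Dnajb8, Dnajc5g and Dnajc22 had no count in any library. The rule also took in Hspg2, which encodes the matrix proteoglycan perlecan and is no chaperone, and the HSP-binding proteins Hspbp1 and Hspbap1, and these 3 were kept apart as other matches. It left out Tcp1, which encodes a further subunit of the CCT complex.

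The HD mice were of the R6/2 line, which carries the first exon of the human HTT gene with an expanded CAG repeat as a transgene besides the mouse gene. Their WT littermates lack the transgene. Labels place the pre-symptomatic age at 8 weeks and the post-symptomatic age at 13 weeks, for HD and WT mice alike. Each region and age was represented by 2 libraries of HD mice and 1 library of WT mice, and nothing in the labels says which libraries come from the same animal, so p-values measure the spread between these libraries. The transgene itself was not measured here.

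Molecular chaperones bind proteins that are not yet folded or have come unfolded. HSP70 proteins work in cycles with J proteins (the DNAJA, DNAJB and DNAJC classes), which bring them clients and start ATP hydrolysis, and with HSP110 and BAG proteins, which exchange the nucleotide. HSP90 acts on late folding steps, CCT is a ring that folds actin, tubulin and other clients, HSP60 with HSP10 folds proteins inside mitochondria, small HSPs hold aggregating proteins, and the transcription factor HSF1 switches on many of these genes under stress. Several of these machines, CCT, HSP70 with its J proteins and HSP110 among them, are known to act on aggregating huntingtin fragments, which is why the class is of interest in HD.

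Promoter sequences from RefSeq (GRCm38.p6) were found for 67 of the 83 tested members. In the 250 bases before each start, both strands were searched for the heat shock element, the site of HSF1, in its forms of 2 inverted units (GAANNTTC and TTCNNGAA) and of 3 units (either form followed, after 2 more bases, by a further inverted GAA or TTC, so that it contains both 2-unit forms), and for the endoplasmic reticulum stress element, CCAAT and CCACG with 9 bases between them. GAANNTTC stood in 12 and TTCNNGAA in 7 of the 67 members, against 7.73% and 8.11% of all 27025 genes in the table. The 3-unit form stood in Dnajb6, Hspd1 and Hspe1, and in 0.514% of all genes, and the endoplasmic reticulum stress element stood in Hspa5, Hsp90b1 and Dnajc3, and in 0.13% of all genes. Hspd1 and Hspe1 are divergent neighbours whose windows share their matches. A match is only a run of letters and not a shown binding site. The stretches below show the motifs in Hsph1, which was called between stages, in Hspa1b, which was called between regions, in Hspb1, the small HSP of highest level, and in Hsp90b1, the HSP90 of the endoplasmic reticulum, with the matches in capitals and each read 5′ to 3′ along the strand of its gene. They lie at chr5:149636352-149636379 on the minus strand, at chr17:34959309-34959368 on the minus strand, at chr5:135887786-135887845 on the plus strand and at chr10:86705513-86705572 on the minus strand, all upstream of the RefSeq start used, and the Hsph1 stretch overlaps the first exon of a longer GENCODE transcript.
Hsph1: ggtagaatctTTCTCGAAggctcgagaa
Hspa1b: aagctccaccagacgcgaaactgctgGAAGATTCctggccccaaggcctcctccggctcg
Hspb1: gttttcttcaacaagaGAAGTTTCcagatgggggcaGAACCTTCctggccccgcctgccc
Hsp90b1: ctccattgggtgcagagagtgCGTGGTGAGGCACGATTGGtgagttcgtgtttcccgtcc

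The libraries held between 8814386 and 12091201 counts. The ribosomal precursor Rn45s took 10.5% to 15.2% of the counts in HD libraries and 4.32% to 5.62% in WT libraries, so that genotype and this property of the libraries cannot be told apart. The labelled regions were borne out by their markers, since 9 summed markers of striatal neurons reached 1386 to 7737 CPM (counts scaled to library size) in striatum and 134 to 373 CPM in cortex. One library, pre-symptomatic HD striatum replicate 2, stood apart, with 21020 CPM over 8 oligodendrocyte markers against 3414 CPM in replicate 1, with 730 against 35.7 CPM over 2 thalamic markers, and with 2309 against 7335 CPM over the striatal markers. Choroid plexus markers came to 940 CPM in that library and to 2988 CPM in post-symptomatic HD cortex replicate 2. They stood at 67.0 to 110 CPM in the other post-symptomatic HD libraries. In the WT libraries and the remaining pre-symptomatic HD libraries they stood at 1.34 to 5.10 CPM. The sum of striatal markers was 1386 and 1411 CPM in post-symptomatic HD striatum, and in such bulk tissue fewer cells of a type cannot be told apart from less RNA per cell. In cortex, 7 markers of cortical neurons summed to 2939 and 2962 CPM in post-symptomatic HD libraries, to 4782 and 5227 CPM in pre-symptomatic HD libraries and to 4705 and 5019 CPM in WT libraries. Oligodendrocyte markers summed to 2375 to 2763 CPM in HD cortex and to 4159 and 4434 CPM in WT cortex. The part of these marker differences in the stage and genotype results was not tested. By their Xist counts, HD replicate 1 was male and replicate 2 female in every group, while WT mice were female at the post-symptomatic and male at the pre-symptomatic age.

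Levels are CPM scaled by the TMM method. QuantSeq counts reads at transcript 3′ ends, so the CPM of different genes can be set side by side without a correction for length. Summed over the 93 members, chaperone transcripts took between 10059 CPM in pre-symptomatic WT striatum and 13290 CPM in a post-symptomatic HD cortex library. HSP90 was the most abundant class at 4751 to 6865 CPM, and the constitutive cytosolic Hsp90ab1 alone, at 3286 to 4580 CPM, made up 33.5% of the members' mean total. Its partner Hsp90aa1 held 13.5%. The HSP70 class followed at 1138 to 1647 CPM, of which the constitutive Hspa8 gave 37.7% and the endoplasmic reticulum chaperone Hspa5 (BiP) 34.6%. The stress-inducible copies Hspa1a and Hspa1b stayed between 1.76 and 11.1 CPM and between 1.12 and 8.72 CPM, and because they are nearly identical, reads may be split between them in a way that cannot be checked here. The highest members of the other classes were Hspa4 for HSP110 (mean 279.5 CPM), Dnaja1 for DNAJA (290.5 CPM), Dnajb2 for DNAJB (80.5 CPM), Dnajc5 for DNAJC (285.0 CPM), Cct7 for CCT (291.1 CPM), Hspd1 for HSP60/HSP10 (121.8 CPM), Hspb1 for the small HSPs (37.0 CPM), Bag6 for BAG (108.3 CPM), Hsf2 for the HSFs (37.9 CPM) and Hspbp1 for the other matches (102.6 CPM).

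**Figure D1:**
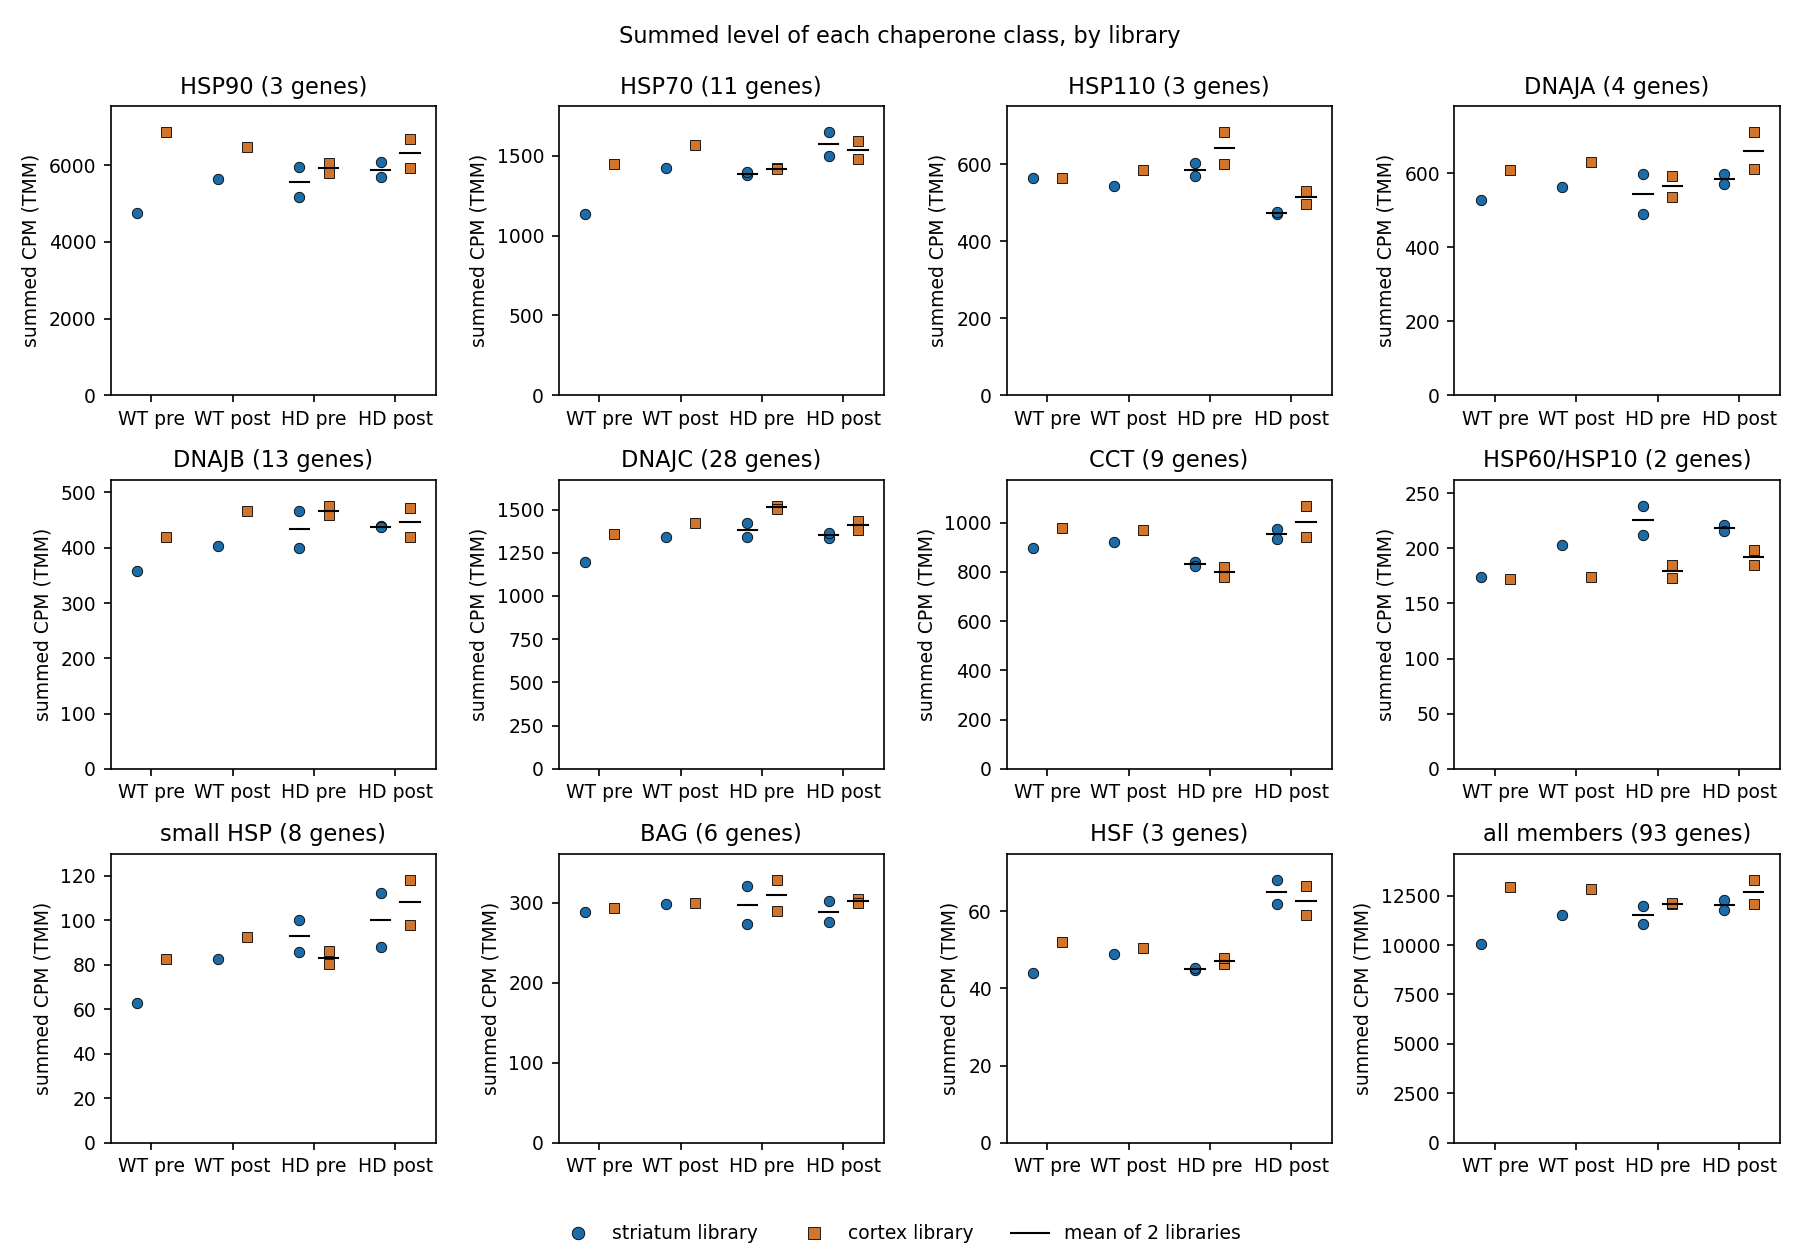
Summed TMM-scaled CPM of each chaperone class (vertical axes, from 0) in every library, by genotype and stage (horizontal axes), with circles for striatum, squares for cortex and lines for the means of 2 HD libraries. The 4 post-symptomatic HD libraries sit at 59.0 to 68.2 CPM for HSF and at 470.0 to 530.1 CPM for HSP110, above and below the other 8 libraries respectively, and the 4 pre-symptomatic HD libraries hold the lowest CCT sums, 778.0 to 840.4 CPM.

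The first comparison asked which chaperone genes differ between HD mice after and before symptom onset, using the 8 HD libraries and allowing for region. Hspa8, Hspa13 and Bag2 were higher after onset, and Hsph1, Hspa12a and Dnajc28 were lower, each with a p under 0.05 from the edgeR quasi-likelihood test after Benjamini and Hochberg's adjustment over all genes. These 6 were 7.23% of the 83 members tested, against 6.45% of the 13944 genes tested in all, so the share of members called was near that background. By direction, 3 members rose where the background was 1.93%, and 3 fell where it was 4.53%. At an unadjusted p under 0.05 stood 26 members, against 22.6% of all genes. Of the members, 51 had a positive difference and 32 a negative one, and the median log2 difference was 0.10 over the members and 0.00 over all genes. In 25 members, 30.1% of those tested, all post-symptomatic HD libraries lay on 1 side of the pre-symptomatic ones within both regions (18 higher, 7 lower), against 20.7% of all genes (9.35% higher, 11.3% lower). Under total-count scaling, which moved the median of all genes to 0.21, 23 members were called, 20 higher and 3 lower, where 11.7% of all genes were called.

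Hsph1, an HSP110 that exchanges the nucleotide of HSP70, lies at chr5:149614287-149636376. It stood at 161.6 and 158.0 CPM in post-symptomatic HD striatum and at 190.4 and 177.3 CPM in post-symptomatic HD cortex. Before onset it stood at 271.3 and 233.2 CPM in striatum and at 290.2 and 240.8 CPM in cortex. The WT libraries held between 249.3 and 269.7 CPM, so all 4 post-symptomatic HD libraries lay below the other 8. The log2 fold difference between stages was -0.58 ± 0.107 (SE, adjusted p = 0.0141). The other HSP110 genes were also lower after onset but were not called, with -0.10 (adjusted p = 0.581) for Hspa4 and -0.24 (adjusted p = 0.353) for Hspa4l, and the class sum was lower by 0.31 on the log2 scale, where HD replicates differed by an SD of 0.08. Under total-count scaling this ratio was -0.10, with the median of all genes at 0.21.

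Hspa8, the constitutive HSP70 that also uncoats clathrin vesicles, lies at chr9:40800984-40810087. It was at 663.3 and 630.7 CPM in post-symptomatic HD striatum and at 697.2 and 686.3 CPM in post-symptomatic HD cortex. In pre-symptomatic HD mice it was at 357.8 and 516.8 CPM in striatum and at 463.8 and 504.9 CPM in cortex. The post-symptomatic HD libraries were again all apart from the other 8, since WT libraries reached at most 588.9 CPM. The log2 difference between stages was 0.55 ± 0.132 (SE, adjusted p = 0.0375). Small nucleolar RNA genes of the Snord14 family lie inside Hspa8, and the counting rule for such reads is not given in the sources used here.

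Hspa13, an HSP70-like protein of the microsomal membrane, was at 51.0 and 46.0 CPM in striatum and at 37.8 and 39.3 CPM in cortex after onset. Before onset it was at 40.2 and 27.0 CPM in striatum and at 26.2 and 25.7 CPM in cortex, and WT libraries held 23.1 to 27.5 CPM. The stages did not overlap within a region, and the log2 difference was 0.57 ± 0.143 (SE, adjusted p = 0.0442). Bag2, which inhibits the ubiquitin ligase CHIP on HSP70, was the lowest of the called genes, with 14 to 132 counts per library. It stood at 4.48 and 4.92 CPM in striatum and at 11.3 and 8.65 CPM in cortex after onset, and at 1.64 and 3.12 CPM in striatum and 3.46 and 3.70 CPM in cortex before. Its log2 difference was 1.25 ± 0.302 (SE, adjusted p = 0.0389). The WT libraries, at 2.77 to 7.62 CPM, overlapped both HD stages.

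Hspa12a, a distant HSP70 relative enriched in neurons, was at 51.7 and 82.7 CPM in striatum and at 86.4 and 77.4 CPM in cortex after onset. Before onset it was at 92.1 and 185.4 CPM in striatum and at 189.5 and 187.5 CPM in cortex. The log2 difference was -1.12 ± 0.230 (SE, adjusted p = 0.0251). WT striatum, at 84.7 and 65.8 CPM, stood near post-symptomatic HD striatum, whereas WT cortex stood at 172.4 and 142.6 CPM. In the cortex of HD mice the markers of cortical neurons were likewise lower after onset, at 2939 and 2962 CPM against 4782 and 5227 CPM, and their part in the Hspa12a result was not tested. Dnajc28, a J protein of uncertain function, was at 7.55 to 10.2 CPM in the 4 libraries after onset and at 13.8 to 19.9 CPM in the 4 before, with a log2 difference of -0.96 ± 0.209 (SE, adjusted p = 0.0266). Its WT libraries were at 13.7 and 13.9 CPM at the post-symptomatic age, from females, and at 9.24 and 8.42 CPM at the pre-symptomatic age, from males. The later age thus had the lower levels in HD mice and the higher levels in WT mice, where age and sex cannot be told apart. Hspa12a overlaps Eno4 on the other strand and Dnajc28 an antisense gene, and whether the counting used strand is not given in the sources used here.

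**Figure D2:**
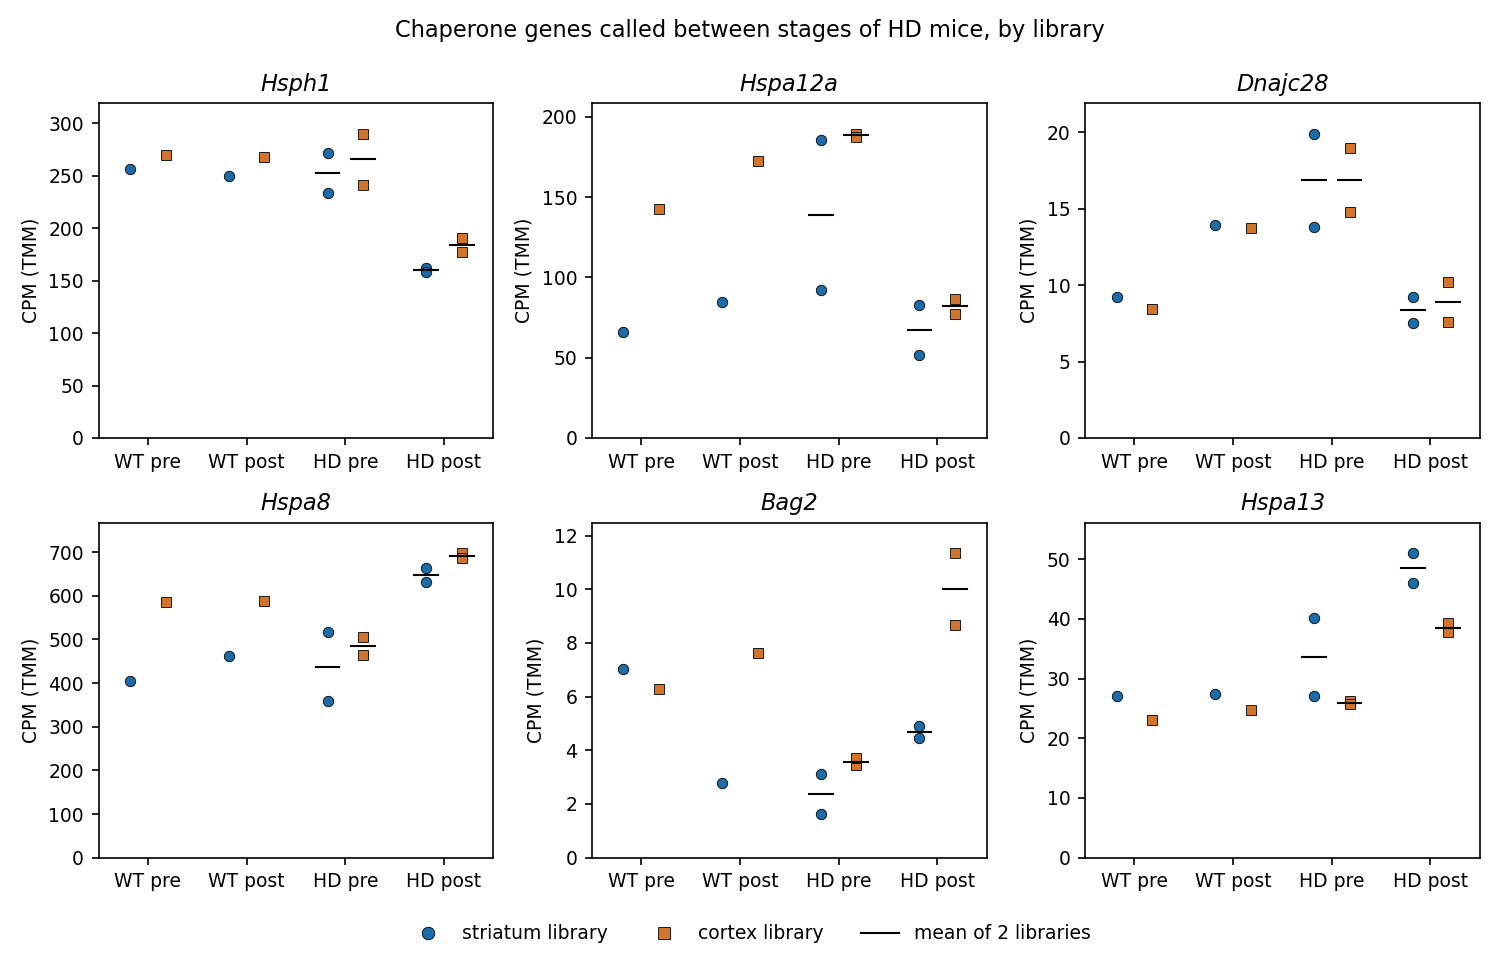
TMM-scaled CPM (vertical axes, from 0) of the 6 members called between stages of HD mice, in every library by genotype and stage (horizontal axes), with circles for striatum, squares for cortex and lines for the means of 2 HD libraries. For Hsph1 the post-symptomatic HD points, 158.0 to 190.4 CPM, lie below all others, and for Hspa8 they lie above all others, at 630.7 to 697.2 CPM.

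Whether these 6 calls were kept depended on which library was left out. Without post-symptomatic HD cortex replicate 1 or 2, 0 members and 1.48% of all genes were called. Without post-symptomatic HD striatum replicate 1 or pre-symptomatic HD cortex replicate 1 it was 0 members, and 2.45% and 1.49% of all genes. Without pre-symptomatic HD cortex replicate 2 it was 1 member and 1.49%, and without post-symptomatic HD striatum replicate 2 it was 2 and 3.49%. Without pre-symptomatic HD striatum replicate 1 or 2 the counts were 10 and 9, where 10.3% and 10.6% of all genes were called. These included 6 and 5 of the 6 calls. With 1 library left out, the log2 differences of Hsph1 lay between -0.53 and -0.64 and those of Hspa8 between 0.44 and 0.66, and their adjusted p reached 0.0727 and 0.129. The 2 libraries highest in choroid plexus markers were also both left out, while the other post-symptomatic HD libraries, at 67.0 to 110 CPM, stayed in. Called by edgeR were then Hsph1 (-0.61, adjusted p = 0.0202), Hspa8 (0.70, adjusted p = 0.0105), Bag2 (1.61, adjusted p = 0.0222) and Dnajc3 (0.58, adjusted p = 0.0276). Hspa12a, Dnajc28 and Hspa13 were not called. These were 4 members, where 7.06% of all genes were called.

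The CCT subunits shared 1 direction between stages without a call. All 7 tested subunits had positive differences between stages, with a median of 0.34 on the log2 scale, and the lowest adjusted p values were 0.0617 for Cct6a (0.34 ± 0.0957, SE), 0.0646 for Cct3 (0.40 ± 0.114, SE) and 0.0706 for Cct2 (0.37 ± 0.107, SE). The class sum was 840.4 and 823.6 CPM in pre-symptomatic HD striatum and 973.6 and 933.8 CPM in post-symptomatic HD striatum. In cortex it was 819.2 and 778.0 CPM before and 1067 and 939.8 CPM after onset. WT libraries held 897.6 to 977.4 CPM, above all 4 pre-symptomatic HD libraries and overlapping the post-symptomatic ones. In the comparison of pre-symptomatic HD with WT mice, which shares the pre-symptomatic HD libraries, all 7 subunits had negative differences with a median of -0.15, none called, and at the post-symptomatic age 4 were positive and 3 negative with a median of 0.04. DESeq2 called Cct2, Cct3 and Cct6a between stages, among 13 members and 1680 of the 13944 genes.

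All 3 heat shock factors had positive differences between stages. Hsf1, the main stress-responsive factor, was at 9.61 and 6.35 CPM in striatum and at 10.3 and 9.57 CPM in cortex before onset. It was at 19.8 and 12.3 CPM in striatum and at 13.8 and 12.4 CPM in cortex after onset, a log2 difference of 0.72 ± 0.242 (SE, adjusted p = 0.113). Its WT libraries reached 12.7 CPM, which overlapped the post-symptomatic HD range. Hsf2, a factor with roles in development, differed by 0.39 ± 0.117 (SE, adjusted p = 0.0781), with 41.1 to 46.7 CPM after and 32.9 to 37.0 CPM before onset in HD mice and 30.6 to 39.0 CPM in WT mice. DESeq2 called Hsf2. Of 14 members in a list of HSF1-driven genes, Hspa8 rose, Hsph1 fell and the other 12 were not called, with a median of 0.14. The calls were 14.3% of the list, against 6.45% of all genes. Among the 16 tested members with a heat shock element of 2 units in the promoter window, only Hsph1 was called. Their median of 0.09 stood beside 0.05 for the 51 members whose promoter window held none. Hspa8 and Hspa13, also called between stages, had no matched promoter sequence and were in neither set. A 2-unit element stood in 14.5% of all genes.

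The inducible HSP70s, which mark an acute heat shock response, were not called between stages, with log2 differences of -0.12 (adjusted p = 0.898) for Hspa1a and -0.43 (adjusted p = 0.555) for Hspa1b. Neither were the abundant cytosolic HSP90s, at 0.02 (adjusted p = 0.951) for Hsp90aa1 and 0.17 (adjusted p = 0.430) for Hsp90ab1. The J proteins Dnaja1 and Dnajb1, cofactors of HSP70 in the cytosol, differed by 0.16 (adjusted p = 0.434) and 0.21 (adjusted p = 0.369). The brain J proteins differed by 0.11 (adjusted p = 0.808) for Dnajb2, -0.49 (adjusted p = 0.163) for Dnajb5, -0.10 (adjusted p = 0.640) for Dnajb6 and -0.17 (adjusted p = 0.329) for Dnajc5, the cysteine string protein of synaptic vesicles. Dnajb6 is a known suppressor of polyglutamine aggregation, and its 12 libraries ranged from 60.9 to 90.8 CPM. The small HSP Hspb1 was at 0.42 (adjusted p = 0.142) and the stress-induced Bag3 at 0.13 (adjusted p = 0.867).

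Of 8 members in the endoplasmic reticulum, Hspa13 was called, or 12.5% against 6.45% of all genes. Hspa5 differed by -0.01 (adjusted p = 0.978), Hsp90b1 (GRP94) by -0.32 (adjusted p = 0.105) and Dnajc3, an inhibitor of the kinase PERK, by 0.45 (adjusted p = 0.0529). Dnajc3 was at 71.4 to 82.6 CPM after and at 50.4 to 62.8 CPM before onset in HD mice, so its stages did not overlap, and neither did those of Hsp90b1 within a region. The 3 members with the endoplasmic reticulum stress element, Hspa5, Hsp90b1 and Dnajc3, thus had differences from -0.32 to 0.45. None of 9 mitochondrial members was called, by edgeR, and their median was 0.09. Hspd1 and Hspe1, the HSP60 and HSP10 subunits, differed by -0.01 (adjusted p = 0.958) and 0.14 (adjusted p = 0.530), and they overlap at their 5′ ends on opposite strands. Hspa9, the mitochondrial HSP70, differed by 0.13 (adjusted p = 0.529).

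**Figure D3:**
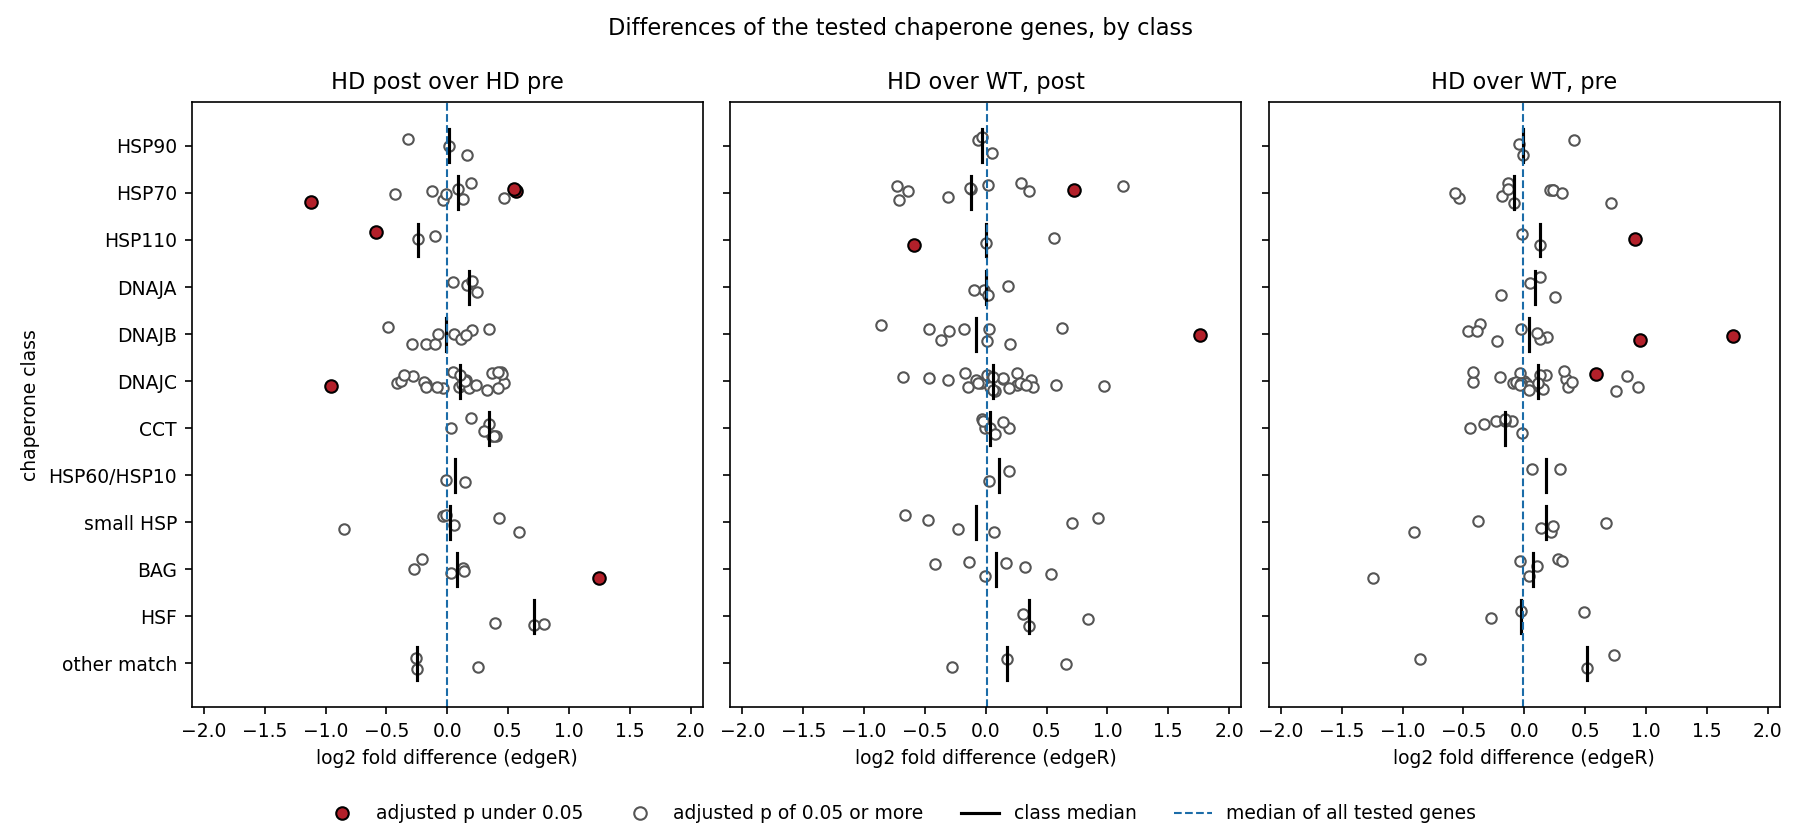
Log2 fold differences (horizontal axes, edgeR) of the 83 tested members by chaperone class (vertical axis) in 3 comparisons, with 1 point per gene spread at random in height, filled points for adjusted p under 0.05, black bars for class medians and dashed lines for the median of all genes tested. All 7 CCT points lie right of 0 between stages, with a median of 0.34, and left of 0 in pre-symptomatic HD against WT mice, with a median of -0.15.

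Within each region, the stage comparison called 0 members by edgeR or voom. In striatum 10 members were at an unadjusted p under 0.05, where 13.0% of all genes were, and edgeR called 0.16% of all genes. DESeq2 called 1 member there, Hsph1, and 3.11% of all genes. In cortex 18 were at an unadjusted p under 0.05, where 14.3% of all genes were, and edgeR called 0.591% of all genes. DESeq2 called 2 members there, Dnajc21 and Hspa12a, and 3.8% of all genes. Hsph1 differed by -0.62 in striatum (adjusted p = 0.154) and by -0.54 in cortex (adjusted p = 0.174), and Hspa8 by 0.60 (adjusted p = 0.262) and 0.50 (adjusted p = 0.293). Leaving out pre-symptomatic HD striatum replicate 1 or 2, with 1 library left in that group, raised the calls in both regions. The rise was seen over all genes as well as in members. No member was called for a difference in the stage change between regions by edgeR or DESeq2, and no gene was called by edgeR over the whole table. Dnajc21, a cofactor of ribosome assembly, was the single member at an unadjusted p under 0.05 (1.33 ± 0.292, SE), against 3.61% of all genes. It was at 46.9 and 47.9 CPM in striatum after onset and at 30.6 and 43.2 CPM before, but at 51.3 and 57.1 CPM in cortex after and at 108.7 and 96.8 CPM before. Without pre-symptomatic HD striatum replicate 2 this difference was 1.55.

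WT mice served as the second comparator. Between the ages of WT mice no member was called by edgeR, DESeq2 or voom, 4 were at an unadjusted p under 0.05 (1.82% of all genes), and 0.0136% of all genes were called, with 1 library per age and region. The WT mice were female at the later and male at the earlier age, so age and sex cannot be told apart in them. Post-symptomatic HD and WT mice were compared by fitting all 12 libraries together and allowing for region. These comparisons share the HD libraries with the comparison of stages, so their results are not independent of it. Called were Hsph1 (-0.59 ± 0.126, SE, adjusted p = 0.0155), Hspa13 (0.73 ± 0.177, SE, adjusted p = 0.0284) and Dnajb12 (1.76 ± 0.313, SE, adjusted p = 0.00688), which is a J protein of the endoplasmic reticulum membrane. These were 3.61% of the members, below the 7.36% called over all genes, and 2 were higher where the background was 3.1% and 1 was lower where it was 4.26%. At an unadjusted p under 0.05 stood 17 members, against 22.3% of all genes. No overlap between genotypes in either region was seen for 24 members that were higher and 12 that were lower in HD mice, 43.4% of those tested, near the 44.0% of all genes (21.4% higher, 22.6% lower). Without the post-symptomatic WT striatum or cortex library these calls fell away, as did most calls over all genes, with 1 library left for WT mice of that age. With pre-symptomatic HD striatum replicate 2 left out, 7 members and 12.5% of all genes were called. With sex as a term Hspa13 was not called (0.64, adjusted p = 0.0554). DESeq2 called 7, adding Dnajc17, Hspa4l, Hspb1 and Hspb6, and 12.2% of all genes.

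In pre-symptomatic HD against WT mice 4 members were called, all higher in HD mice and all with adjusted p from edgeR. They were Dnajb12 (1.71 ± 0.309, SE, adjusted p = 0.0160), Hspa4l (0.91 ± 0.175, SE, adjusted p = 0.0208), Dnajc8 (0.59 ± 0.129, SE, adjusted p = 0.0373) and Dnajb14 (0.95 ± 0.212, SE, adjusted p = 0.0401). They were 4.82% of the members, against 2.1% of all genes called, of which 1.95% were higher and 0.15% lower. At an unadjusted p under 0.05 stood 16 members, against 13.9% of all genes. Genotypes did not overlap in either region for 16 members that were higher and 13 that were lower in HD mice, 34.9% of those tested against 30.6% of all genes (15.4% higher, 15.1% lower). Without a pre-symptomatic WT library most or all calls fell away, among members and over all genes alike, with 1 library left for WT mice of that age. Dnajb14 differed by 1.33 without the WT cortex library. Without pre-symptomatic HD cortex replicate 1 only Dnajb12 was called (1.81, adjusted p = 0.0340), and 0.805% of all genes. Without its replicate 2 only Hspa4l was called (0.98, adjusted p = 0.0419), and 0.688% of all genes. Only Dnajb12 and Hspa4l were called without pre-symptomatic HD striatum replicate 1, post-symptomatic HD striatum replicate 2 or post-symptomatic HD cortex replicate 1. These fits called 1.31% to 1.84% of all genes. DESeq2 called 5, adding Dnajc28, and 4.58% of all genes.

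Dnajb12, with 23 to 149 counts per library, lay at 7.27 to 13.3 CPM in the 8 HD libraries and at 2.19 to 3.66 CPM in the 4 WT libraries. Hspa4l, an HSP110 most known from testis, lay at 43.5 to 65.9 CPM in HD and at 28.7 to 36.3 CPM in WT libraries. Dnajb14, a relative of Dnajb12 in the same membrane, lay at 63.1 to 103.4 CPM in HD and at 38.7 to 62.5 CPM in WT libraries. In these 3 genes, picked by the test between genotypes, every HD library was above every WT library, at both ages and in both regions. The share of all genes that separate in this way was not counted. Dnajc8, which works with the spliceosome, was at 170.2 to 201.8 CPM in pre-symptomatic HD mice and at 118.9 and 126.9 CPM in WT mice of that age. At the post-symptomatic age it was at 132.1 to 159.6 CPM in HD and at 144.6 and 130.6 CPM in WT mice. The HD range over both regions then overlapped the WT range. Within each region the HD libraries of that age were still above the WT library, as for 21.4% of all genes. Hspb1 also separated all HD libraries (32.5 to 56.6 CPM) from all WT libraries (18.6 to 31.7 CPM), without a call at the post-symptomatic (0.71 ± 0.211, SE, adjusted p = 0.0613) or pre-symptomatic age (0.67 ± 0.213, SE, adjusted p = 0.157) by edgeR. The share of Rn45s moved with these differences, at 10.5% or more in each HD library and at most 5.62% in each WT library, and its part in them was not tested.

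**Figure D4:**
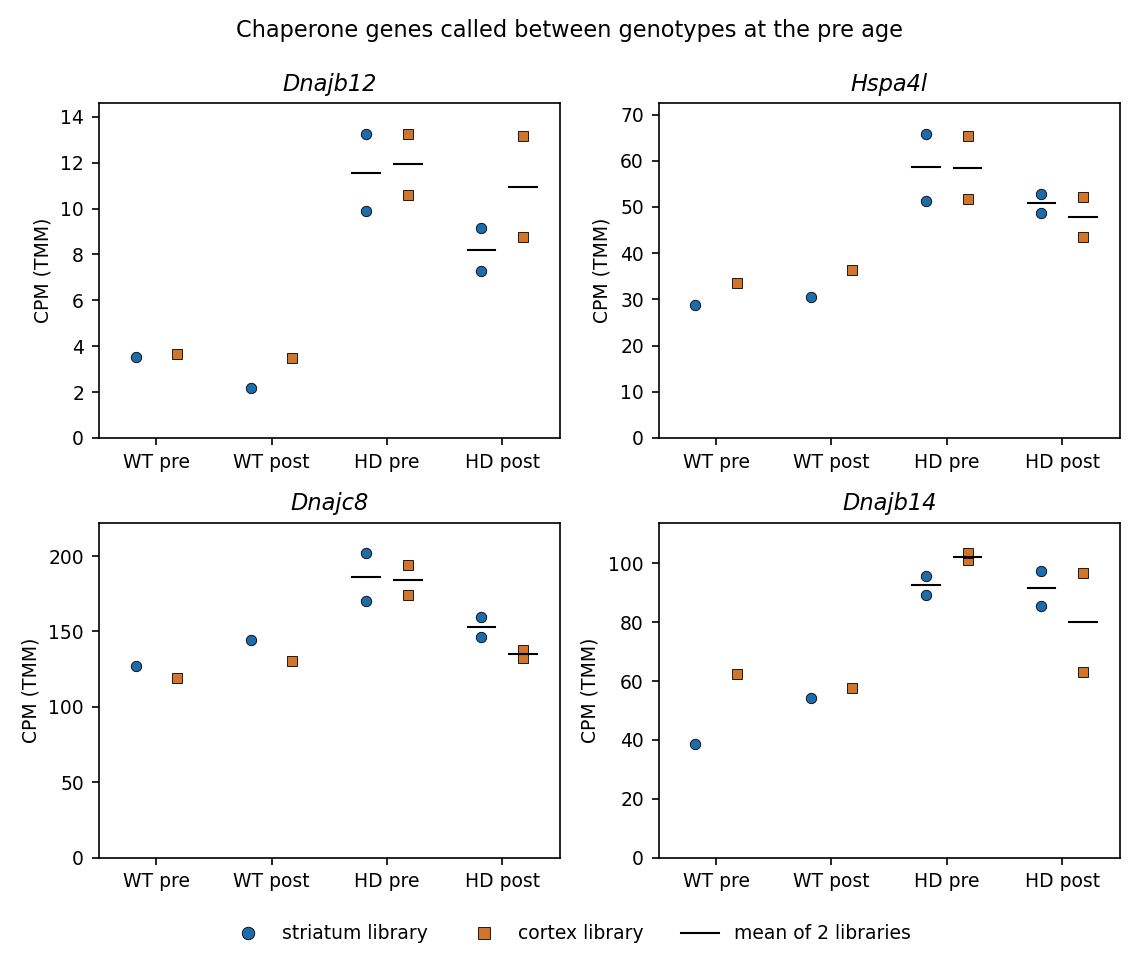
TMM-scaled CPM (vertical axes, from 0) of the 4 members called between pre-symptomatic HD and WT mice, in every library by genotype and stage (horizontal axes), with circles for striatum, squares for cortex and lines for the means of 2 HD libraries. For Dnajb12 the 8 HD points sit at 7.27 to 13.3 CPM, above the 4 WT points at 2.19 to 3.66 CPM.

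Whether the change with stage differed between HD and WT mice was tested as an interaction in the same fit. In WT mice age went together with sex, and with sex as a term no gene was called for the interaction by edgeR. By edgeR and by voom no member passed an adjusted p of 0.05, against 0.116% of all genes, and 6 members stood at an unadjusted p under 0.05 (8.92% of all genes), namely Dnajc28, Hspa12a, Bag2, Hsph1, Dnajc8 and Dnajc2. Dnajc28 had the lowest p (-1.61 ± 0.336, SE, adjusted p = 0.119). DESeq2 called it (-1.62, adjusted p = 0.00278) and 1.51% of all genes, as did edgeR without pre-symptomatic HD striatum replicate 2 (-1.51, adjusted p = 0.0477). For Hsph1 the difference in change was -0.57 ± 0.181 (SE, adjusted p = 0.303) and for Hspa8 0.44 ± 0.227 (SE, adjusted p = 0.611), so the lower Hsph1 and higher Hspa8 of HD mice after onset were not shown to differ from the change in WT mice.

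Striatum and cortex differed for 16 members over all 12 libraries, 5 higher and 11 lower in striatum, with genotype and stage as a term. This was 19.3% of the members, near the 20.6% of all genes called (8.51% higher, 12.1% lower), and 25 members were at an unadjusted p under 0.05, where 33.4% of all genes were. Total-count scaling also gave 16 calls, 9 higher and 7 lower, where 21.4% of all genes were called. Of these, 12 were shared with the 16 above, while Hspa12a, Hspa1a, Hspb6 and Hspbp1 were no longer called. The 16 were picked by this same contrast, so separation of their regions follows in part from that choice. No share over all genes is at hand for the 7 whose 6 striatal libraries did not overlap the 6 cortical ones. Nor is there one for the 8 that passed the threshold of 0.05 under every alternative that tested them. The 8 were Hspb3, Dnajc6, Hspa1b, Hspb11, Dnajc21, Dnajc5, Hsf4 and Hsp90aa1. With 1 library left out, between 8 and 21 members were called, and between 13.4% and 25.4% of all genes.

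Of 6 J proteins listed as synaptic or neuronal, 2 were called between regions, Dnajc5 and Dnajc6, both lower in striatum. This was 33.3% of the list against 20.6% of all genes, and the others were not called. Dnajc6 (auxilin), which helps Hspa8 to uncoat clathrin vesicles, ranged from 52.9 to 95.9 CPM in striatum with a median of 78.1 CPM and from 114.8 to 152.5 CPM in cortex with a median of 139.8 CPM, a log2 difference of -0.80 ± 0.140 (SE, adjusted p = 0.00157). Dnajc5 ranged from 218.7 to 263.1 CPM in striatum (median 254.3 CPM) and from 286.3 to 345.9 CPM in cortex (median 332.4 CPM), a difference of -0.37 ± 0.0831 (SE, adjusted p = 0.00778). In neither gene did the regions overlap. Dnajc21 did not overlap either, at 18.1 to 47.9 CPM in striatum and 51.3 to 108.7 CPM in cortex (-1.16 ± 0.242, SE, adjusted p = 0.00642).

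Of 14 HSF1-driven members, Hsp90aa1, Hspa1b and Hspa1a were lower in striatum and Hspe1 was higher (0.37 ± 0.100, SE, adjusted p = 0.0199). These were 28.6% of the list against 20.6% of all genes, and the other 10, Hsph1, Dnajb1 and Hspb1 among them, were not called. Hsp90aa1, the inducible HSP90, ranged from 1153 to 1504 CPM (median 1397 CPM) in striatum and from 1594 to 2210 CPM (median 1816 CPM) in cortex, a log2 difference of -0.44 ± 0.107 (SE, adjusted p = 0.0127). Hspa1b ranged from 1.12 to 2.48 CPM in striatum and from 3.78 to 8.72 CPM in cortex (-1.56 ± 0.287, SE, adjusted p = 0.00211), and its near copy Hspa1a from 1.76 to 5.71 CPM and from 5.03 to 11.1 CPM (-0.98 ± 0.314, SE, adjusted p = 0.0440), where the regions overlapped. Hspa1a was not called under upper-quartile or total-count scaling, and it was called in 3 of 12 fits with 1 library left out. Hsf4, a factor best known from the lens, was lower at -1.35 ± 0.316 (SE, adjusted p = 0.00956) with 0.70 to 4.28 CPM in striatum and 3.25 to 6.10 CPM in cortex.

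The widest regional difference was in Hspb3, a small HSP first described in muscle. It had 0 counts in 3 of the 6 striatal libraries, all from HD mice, and 2, 5 and 7 counts in the others, while the cortical libraries held 19 to 67 counts, or 1.68 to 5.70 CPM. The fitted log2 difference of -4.18 (SE 0.674, adjusted p = 0.000938) depends on those low counts. Hspb11, named among the small HSPs although it is a subunit of the intraflagellar transport complex, was the reverse, with 7.49 to 14.8 CPM in striatum and 2.83 to 6.69 CPM in cortex (1.02 ± 0.212, SE, adjusted p = 0.00475). Hspb6, Hspbp1 and Hspa12a were lower in striatum with -0.58, -0.49 and -0.60, and Cct3, Dnajc1 and Hspa14 were higher with 0.32, 0.33 and 0.35, each with overlapping regions and an adjusted p between 0.0260 and 0.0495 by edgeR. Hspa12a in pre-symptomatic HD striatum was at 92.1 CPM in replicate 1 and at 185.4 CPM in replicate 2, the library high in oligodendrocyte markers, and the other striatal libraries held 51.7 to 84.7 CPM.

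**Figure D5:**
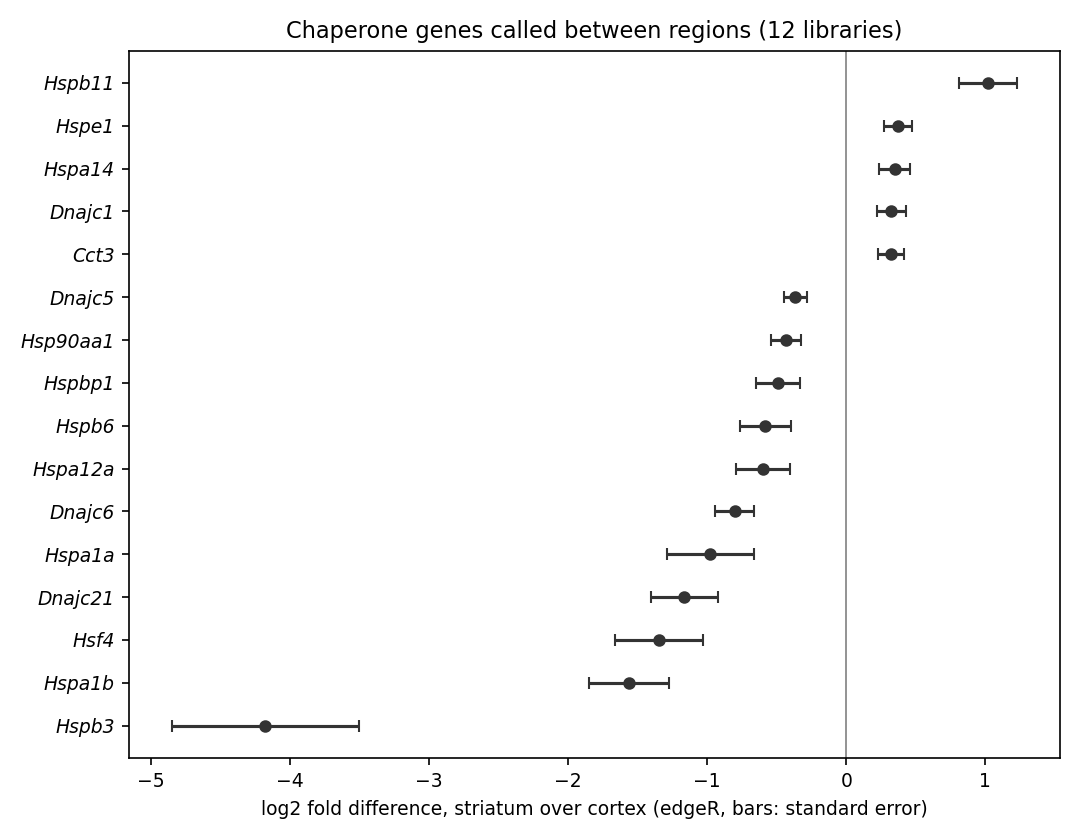
Log2 fold differences of striatum over cortex (horizontal axis, edgeR, 12 libraries) of the 16 members called between regions (vertical axis), with bars for the standard error and a line at 0. Hspb11 lies farthest to the right at 1.02, and Hspb3 farthest to the left at -4.18.

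Chaperone machinery outside the symbol rule was followed through 3 further lists. Of 31 tested cochaperones, such as Stip1, Ahsa1 and the immunophilins, 1 fell between HD stages, the HSP90 cochaperone Chordc1 (-0.54 ± 0.114, SE, adjusted p = 0.0239), or 3.23% against 6.45% of all genes. Ahsa2, a relative of the HSP90 activator Ahsa1, was higher in post-symptomatic HD than in WT mice, and St13, which stabilizes HSP70 in its bound state, was higher in pre-symptomatic HD than in WT mice, each again 3.23% of the list against 7.36% and 2.1% of all genes. The median between HD stages was 0.09. Of 8 prefoldin subunits, which hand clients to CCT, none was called between HD stages or between genotypes at either age by edgeR, with medians of 0.20, 0.18 and -0.03. Of 21 genes for folding and stress in the endoplasmic reticulum, Sdf2l1, a partner of Hspa5, was lower between HD stages (-1.44 ± 0.223, SE, adjusted p = 0.00777) and in post-symptomatic HD against WT mice (-1.27 ± 0.262, SE, adjusted p = 0.0137). Pdia4, a disulfide isomerase, was higher in HD than in WT mice at the post-symptomatic (1.22 ± 0.207, SE, adjusted p = 0.00597) and pre-symptomatic age (1.87 ± 0.213, SE, adjusted p = 0.00281). These calls were 4.76%, 9.52% and 4.76% of that list between HD stages and between genotypes at the post-symptomatic and pre-symptomatic age, against 6.45%, 7.36% and 2.1% of all genes.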

How the data were processed

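RNA was extracted with Trizol from striatum and cortex, and made into libraries by Lexogen QuantSeq. The authors deposited 1 file of raw counts per library, with gene symbols and without normalization. The submitters' processing notes name Bowtie2, bedtools and mm10. Their versions and roles, the annotation and the counting rule are not given in the sources used here. Replicates of a group differed by more than sampling noise, with a chi-square per degree of freedom between 6.98 and 73.0.

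The deposited counts were tested in R 4.3.3 with edgeR 4.0.16. Scaling was by TMM, filterByExpr kept genes at its minimum count of 10, quasi-likelihood fits were robust, and p-values were adjusted by Benjamini and Hochberg's method over all genes tested. The study names no test for RNAseq. HD stages were compared in 8 libraries, and genotypes and regions in all 12. Class sums had no test. Named genes were 20 chosen chaperones, up to 12 called members per comparison by p, and the highest member of each class. Members named outside this rule, such as Cct2, Cct3, Cct6a, Dnajc2, Dnajc3, Dnajc17 and Hspa4, were named after their values were seen. The members, classes and lists were chosen with earlier results of these data known. Alternatives were DESeq2 1.42.0, voom (limma 3.58.1), other scalings and filters, sex, a replicate block and leaving out libraries. The scripts were tested on simulated data. No molecular identifiers are stated for these reads. The standard errors and p-values from edgeR draw on the spread between libraries and not on counting error alone.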

Additional observations from a re-analysis of the deposited data

How the results depend on the processing

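No called gene changed direction under the alternatives run. Between HD stages, 6 members were called, where 6.45% of all genes were. DESeq2 called 13 members and 12% of all genes, and total-count scaling 23 (20 higher, 3 lower) and 11.7%. At an adjusted p under 0.01 stood 0 members and 1.15% of all genes. With 1 library left out, 0 to 10 members and 1.48% to 10.6% of all genes were called. In post-symptomatic HD against WT mice, 3 members were called, where 7.36% of all genes were. DESeq2 called 7 and 12.2% of all genes, upper-quartile scaling 5 and 7.36%, and total-count scaling 5 and 7.62%. At an adjusted p under 0.01 stood 1 member and 2% of all genes. With 1 HD library left out, 2 to 7 members and 4.29% to 12.5% of all genes were called. At the pre-symptomatic age 4 members were called, where 2.1% of all genes were. Total-count scaling called 2 and 1.53% of all genes, namely Dnajb12, shared with the 4, and Cct3, which was lower. An adjusted p under 0.01 left 0 members and 0.381% of all genes. With 1 HD library left out, 1 to 4 members and 0.688% to 3.04% of all genes were called. The fits without a WT library are described above. Where 0 members were called, DESeq2 called 1 for the difference in change between HD and WT mice (1.51% of all genes). For stage it called 1 in striatum (3.11% of all genes) and 2 in cortex (3.8%), and no filter gave 1 in cortex (1.36%). With 1 library left out, member calls in these comparisons and for the difference in change between regions rose only where calls over all genes rose too. The fits by region then held 1 library in a group. Between regions, 7 of 16 calls had an adjusted p under 0.01, where 10.7% of all genes did. With 1 library left out, 8 to 21 members and 13.4% to 25.4% of all genes were called.

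Leaving out pre-symptomatic HD striatum replicate 2 and post-symptomatic HD cortex replicate 2 together was an alternative chosen after seeing the data. It gave 7 calls in post-symptomatic HD against WT mice, where 11.4% of all genes were called. Stage fits within a region then held 1 library in a group and are not counted. The replicate numbers do not mark shared animals across stages, and the correlations of deviations between same-numbered HD libraries ran from 0.0251 to 0.270. With the replicate block, 7 members (4 higher, 3 lower) and 7.33% of all genes were called between HD stages. Between genotypes 3 and 4 were called at the later and earlier age, and 6.02% and 2.14% of all genes. Between regions it was 16 and 21.4%, with 0 members in the other comparisons.

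Scaling by total counts moved the log2 ratios of class sums between HD stages to 0.18 for BAG, 0.48 for CCT, 0.38 for DNAJA, 0.19 for DNAJB, 0.15 for DNAJC, 0.68 for HSF, -0.10 for HSP110, 0.24 for HSP60/HSP10, 0.36 for HSP70, 0.30 for HSP90, 0.45 for small HSPs and 0.28 for all members. Upper-quartile scaling gave -0.0041 for DNAJC and 0.21 for HSP70. Under total-count scaling the median of all genes was 0.21 between HD stages, 0.10 for HD over WT after onset and -0.15 before it. The cause of these changes was not tested. Each group had 2 HD libraries or 1 WT library, and Bag2, Dnajb12, Hspa1b and Hspb3 rest on low counts.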
